A study of Mus musculus with 24 samples.

Results

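Cabozantinib (cabo) is a tyrosine kinase inhibitor, and outside the VEGF receptors its named targets include MET, the TAM receptor AXL and RET. RNA levels are described here for 8 genes of these receptor systems: the receptors Met, Axl, Mertk, Tyro3 and Ret, and the ligands Hgf, Gas6 and Pros1. They were chosen by name, from the known pharmacology of the drug and the families of its targets, and are 8 of the 55401 gene identifiers measured. All 8 passed the filter on low counts in the subcutaneous and in the intratibial tumors. The tumors were grown from TC2Ras, a mouse prostate adenocarcinoma cell line of the TRAMP-C2ras type, in male C57/BL6 mice aged 8 to 10 weeks. Subcutaneous (SC) tumors were taken a week after implantation from mice that had received a control plasmid (SC control, n = 2) or a plasmid for interleukin-27 (SC IL-27, n = 2). Intratibial tumors were grown from luciferase-tagged TC2Ras cells in the bone marrow space of the tibia. Those mice received empty vector with the vehicle polyvinylpyrrolidone (PVP) (control), IL-27 vector with PVP (IL-27), empty vector with cabo (cabo) or IL-27 vector with cabo (IL-27+cabo). There were 3 tumors per group on day 14 (D14) and 2 per group at the study end (EOS). The methods state that the plasmids were delivered into muscle with ultrasound (sonoporation), the control plasmid carried the secreted luciferase Lucia, and cabo or PVP was given daily by gavage over the first 14 days, so that the EOS tumors of each cabo group were harvested after dosing. The labels do not say whether the SC tumors came from separate mice, so the p-values measure the spread between these tumors. All tumors came from a single cell line and were sequenced in bulk, so fewer cells of a type cannot be told apart from less RNA per cell.

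MET is the receptor for hepatocyte growth factor (HGF), a factor that stromal cells secrete in an inactive form and that proteases activate. TYRO3, AXL and MERTK, the TAM receptors, bind GAS6, and TYRO3 and MERTK also bind protein S (PROS1); these ligands bridge the receptor to phosphatidylserine on the surface of apoptotic cells. In macrophages MERTK and AXL take part in the clearance of such cells and dampen inflammatory responses, and in carcinoma cells AXL is known for its part in migration and drug resistance. RET signals for the GDNF family of ligands together with a co-receptor of the GFRA family, and its best known role is in the development of enteric neurons and kidney.

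In the GENCODE M21 annotation of GRCm38, Met lies at chr6:17463800-17573980 on the plus strand and Ret at chr6:118151745-118197718 on the minus strand. Axl lies at chr7:25757273-25788705 on the minus strand, and Mertk and Tyro3 lie on the plus strand of chromosome 2, at chr2:128698956-128802894 and chr2:119797733-119818104. Hgf lies at chr5:16553495-16620152 and Pros1 at chr16:62854307-62929346, both on the plus strand, and Gas6 at chr8:13465374-13494490 on the minus strand. The receptors are related by sequence, so the coding bases of the kinase activation segment, the loop whose phosphorylation switches the kinase on, are shown to let the family members be compared. Each runs 5′ to 3′ from the GENCODE M21 transcript with the longest coding sequence, and the capitals mark the 3 codons of the conserved DFG motif that opens the segment:
Axl: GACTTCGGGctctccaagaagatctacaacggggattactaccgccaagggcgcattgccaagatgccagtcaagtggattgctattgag
Mertk: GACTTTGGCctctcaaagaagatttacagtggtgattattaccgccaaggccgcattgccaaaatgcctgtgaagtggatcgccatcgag
Tyro3: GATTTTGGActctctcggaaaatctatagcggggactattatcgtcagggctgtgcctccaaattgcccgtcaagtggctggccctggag
Ret: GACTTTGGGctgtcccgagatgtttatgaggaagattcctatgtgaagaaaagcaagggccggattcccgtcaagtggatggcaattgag
Met: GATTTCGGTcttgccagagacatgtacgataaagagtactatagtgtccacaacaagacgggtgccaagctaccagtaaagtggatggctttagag
The Axl segment is in exon 18 (chr7:25761444-25761533), the Mertk and Tyro3 segments are in exon 17 (chr2:128792977-128793066 and chr2:119812834-119812923), the Met segment is in exon 20 (chr6:17563585-17563680), and the Ret segment is joined from exons 15 and 16 (chr6:118165948-118167952). Axl and Mertk shared 83.3% of the 90 bases and encoded the same residue in 29 of 30 codons. Tyro3 encoded the same residue as Mertk in 23 codons and as Axl in 22, and Ret encoded the same residue as each of the TAM receptors in 15. The Met segment is longer, at 96 bases. Even so, the longest exact run shared by the full coding sequences of any 2 of these 5 receptors was 17 bases, between Met and Ret, and Gas6 and Pros1 shared at most 12 bases. Other overlaps remained: the last exon of Gas6 overlaps Tmem255b on the other strand, Mertk overlaps the antisense gene Gm14011, and Hgf overlaps Gm42975 and Gm43489. The libraries were stranded, but the strand setting of the counting is not given in the sources used here.

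The tumors held 63729005 to 83782258 counts each. Of the 8 epithelial markers checked against the adenocarcinoma label, Krt8 had a median of 38.1 CPM (counts scaled to a common library total) in the intratibial tumors. Epcam had a median of 2.83 CPM there, Cdh1 had 5.53 CPM, and Krt5 was at 0 in every intratibial tumor. The tumor of mouse 20 in the D14 IL-27+cabo group stood apart. Relative to the mean of the other IL-27+cabo tumors of that day, its median difference over genes ran from -0.67 on the log2 scale in the quartile of genes with the lowest GC content to 0.37 in the quartile with the highest. For this tumor Mertk was lower by -2.63 on the log2 scale, Hgf by -2.40, Met by -1.77, Axl by -1.19 and Pros1 by -0.96, while Gas6 was higher by 0.94, Ret by 0.55 and Tyro3 by 0.25.

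In the intratibial tumors Axl was the most abundant of these transcripts and Ret the least. Levels are compared between genes only as CPM per kilobase of exon, after TMM normalization within each site. In the 20 intratibial tumors the median level per kilobase was 111 for Axl, 41.8 for Pros1, 8.88 for Mertk, 8.74 for Met, 5.21 for Gas6, 4.09 for Tyro3, 2.98 for Hgf and 0.102 for Ret. Axl was above Pros1 in 20 of 20 tumors, Pros1 above Mertk in 20 of 20, and Hgf above Ret in 20 of 20. Mertk was above Met in 9 of 20, Met above Gas6 in 18 of 20, Gas6 above Tyro3 in 13 of 20 and Tyro3 above Hgf in 18 of 20. The middle of the order, from Mertk to Hgf, thus held genes whose ranges overlapped. The TAM receptor Tyro3 was the flattest of the 8 in bone, where its highest tumor was 1.47 times its lowest, at 20.6 to 30.4 CPM. Gas6 ran from 3.22 to 30.7 CPM, or 9.55 times, with mouse 20 as the highest tumor and 22.1 CPM as the next value. Ret stayed between 0.294 and 2.49 CPM, or 8.48 times, from 19 to 171 counts, so its values carried more counting error than those of the other genes. In the SC tumors the order of the group means differed between the groups, although Axl was above Pros1 in 3 of 4 tumors. In the controls the mean level per kilobase was 121 for Axl, 37.3 for Pros1, 24.1 for Gas6 and 0.0887 for Ret, and with IL-27 it was 83.1 for Pros1, 80.1 for Axl, 5.53 for Gas6 and 0.417 for Ret. Ret was the lowest by these means, though in SC IL-27 replicate 2 its level per kilobase of 0.576 was above that of Tyro3, 0.550.

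**Figure D1:**
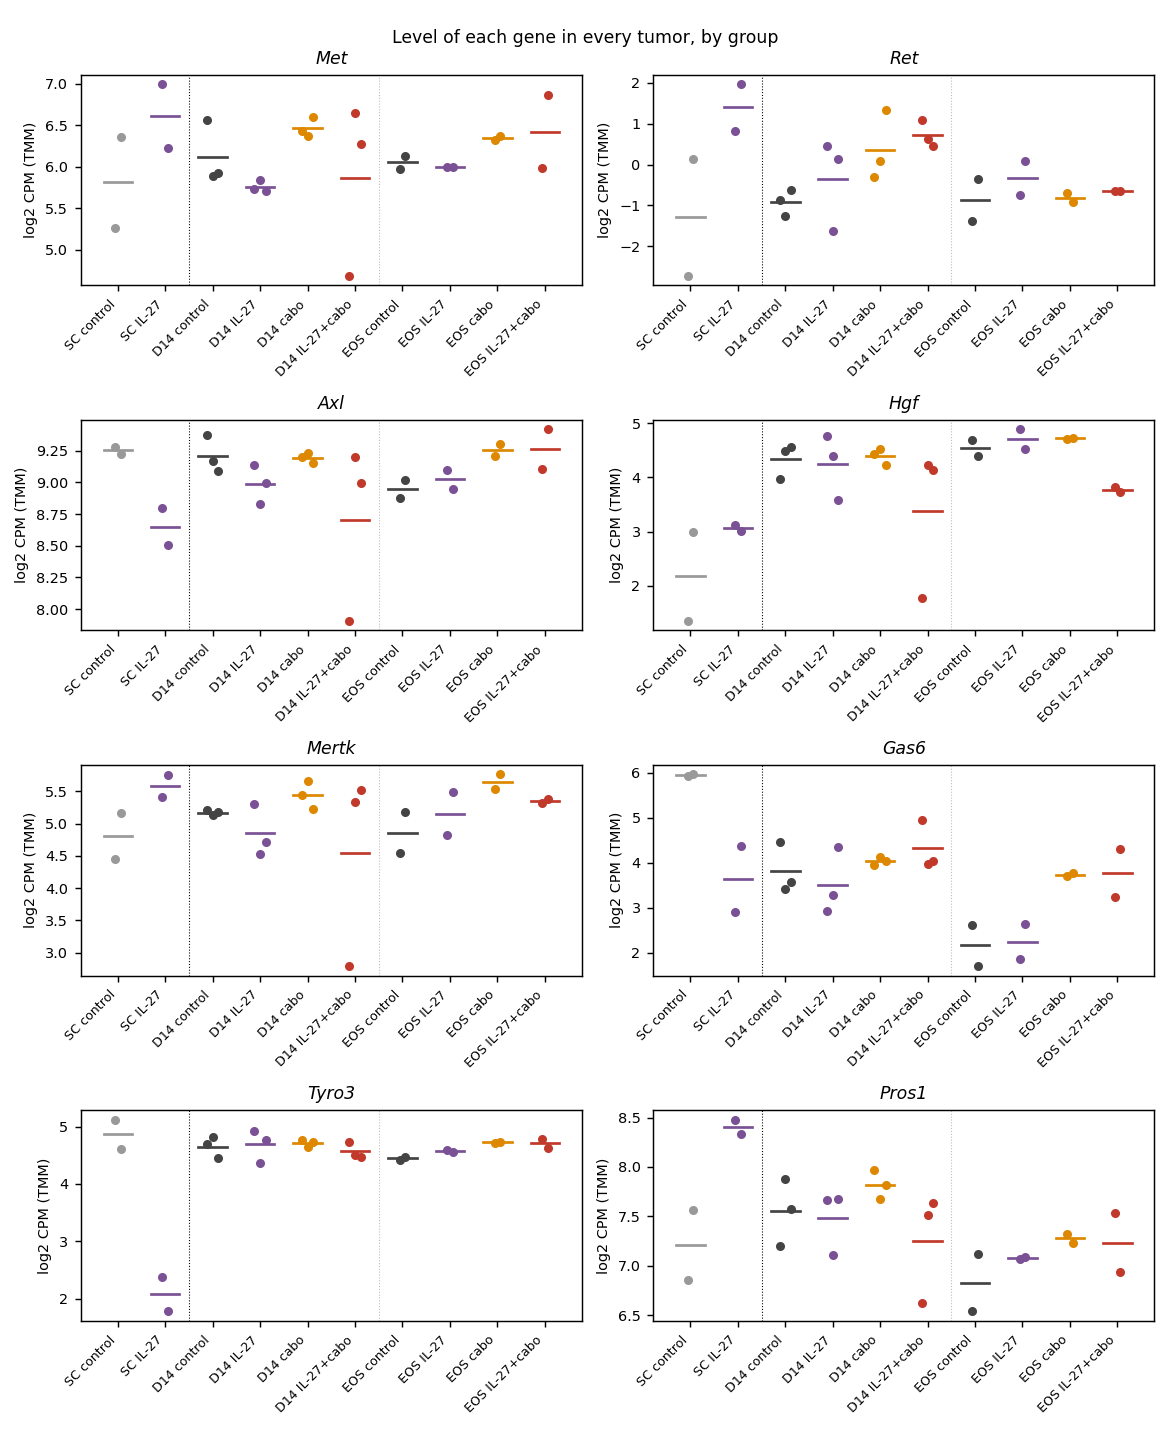
Level of each of the 8 genes in every tumor, as TMM-normalized log2 CPM on the vertical axis, with the 10 groups along the horizontal axis; points are single tumors and bars are group means. The dotted lines separate the SC tumors, which were normalized apart, and the D14 from the EOS tumors, and the low point of Met, Axl, Mertk, Hgf and Pros1 in D14 IL-27+cabo is mouse 20.

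In the SC tumors, IL-27 was compared with control plasmid to ask what the cytokine gene therapy changed in the tumor. In the main edgeR fit, on the raw counts of all 4 tumors with group alone, Tyro3 and Gas6 passed downward and no member passed upward. This stood beside calls for 20% of all genes, and neither gene passed with GC content and length removed. Tyro3 was at 34.8 and 24.3 CPM in the control tumors and at 5.18 and 3.41 CPM in the IL-27 tumors. The groups did not overlap, and the log2 fold change was -2.78 ± 0.43 (SE, adjusted p = 0.00543). Gas6, the ligand common to the TAM receptors, was at 60.7 and 62.3 CPM in the controls and at 7.45 and 20.7 CPM with IL-27. Both IL-27 tumors were below both controls, and the log2 fold change was -2.13 ± 0.51 (SE, adjusted p = 0.0286). Gas6 did not pass when SC control replicate 1 (-2.12, adjusted p = 0.131), SC control replicate 2 (-2.13, adjusted p = 0.0781) or SC IL-27 replicate 1 (-1.58, adjusted p = 0.121) was left out, whereas Tyro3 passed in all 4 such fits. Thus 2 of 8 members passed the test, where 20% of the 19360 genes tested did, 682 upward and 3198 downward.

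Pros1, the ligand of TYRO3 and MERTK, had values in the opposite direction. It was at 115 and 189 CPM in the controls and at 357 and 323 CPM with IL-27, without overlap (log2 fold change 1.16 ± 0.37, adjusted p = 0.0679). DESeq2 called Pros1 (adjusted p = 0.00995), as did edgeR on counts divided by 4 (adjusted p = 0.0489) and without SC control replicate 2 (adjusted p = 0.0206), while with GC content and length removed the adjusted p was 0.727. Ret was at 0.125 and 1.07 CPM in the controls, which were 10 and 79 counts, and at 1.75 and 3.90 CPM with IL-27. Its log2 fold change was 2.23 ± 1.01 (adjusted p = 0.164), and its 95% interval ran from -0.17 to 4.63. It was 4.45 without SC control replicate 2 (edgeR adjusted p = 0.0395) and 2.69 without SC IL-27 replicate 1 (edgeR adjusted p = 0.0425), and 1.41 and 1.53 without the other replicate of each group. Axl was at 622 and 599 CPM against 444 and 363 CPM with IL-27, a log2 fold change of -0.60 ± 0.32 (adjusted p = 0.225). Mertk was at 21.7 and 35.7 CPM against 42.6 and 53.9 CPM, Hgf at 2.53 and 7.96 CPM against 8.66 and 8.01 CPM, and Met at 38.5 and 82.0 CPM against 128 and 74.8 CPM. The adjusted p of these 3 lay between 0.198 and 0.461, and only the Met values overlapped. The share of all genes without overlap was not counted in the SC tumors.

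Over all genes, the SC fold changes ran with the GC content of the transcripts. The median log2 fold change was 0.86 in the quartile with the lowest GC content, which held Hgf and Pros1, and -2.11 in the quartile with the highest, which held Axl, Tyro3 and Gas6. That highest quartile, from 54.17% GC upward, held 2491 of the downward calls and 40 of the upward ones. When GC content and length were removed in the fit, 0 of the 8 members passed, Tyro3 stood at -0.79 ± 0.35 (adjusted p = 0.214) and Gas6 at -0.49 ± 0.46 (adjusted p = 0.548). The median of all genes moved to -0.34 in that fit. Relative to this median Tyro3 was at -0.45, Gas6 at -0.15, Pros1 at 0.54, Axl at 1.29 and Ret at 3.17. Hgf was at -0.33, Met at 0.21 and Mertk at 0.33 relative to it. On this relative scale the signs of Axl and Hgf were turned and those of the other 6 members were kept. In the fit itself Met was at -0.135 and Mertk at -0.015, so that their signs were turned there as well. Cell type markers moved too: summed skeletal muscle markers (10 of 10 detected) were at 2.58 to 11.2 CPM in the controls and at 340 to 1062 CPM with IL-27, and 9 of 10 passed the test upward. Summed macrophage markers (10 of 10 detected) were at 2278 to 3598 CPM in the controls and 2513 to 4019 CPM with IL-27, and 5 of 10 passed downward. Summed marrow neutrophil markers (6 of 8 passed the filter) were at 1.37 to 2.37 CPM in the controls and at 38.02 to 39.6 CPM with IL-27, with 5 of 6 called upward. Summed epithelial markers were at 27.7 to 76.5 CPM in the controls and at 4.31 to 12.2 CPM with IL-27, and 2 of 6 passed downward. T cell markers were called upward in 3 of 7, B and plasma cell markers in 2 of 5 and erythroid markers in 2 of 5. Endothelial markers were called downward in 3 of 8 and platelet markers in 2 of 4, and of 8 fibroblast markers 2 were called upward and 1 downward. Of the osteoblast markers 1 of 4 was called downward and of the osteoclast markers 1 of 5 upward. The part of GC content and of these cell types in the Tyro3 and Gas6 values was not tested beyond the fit without GC content.

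**Figure D2:**
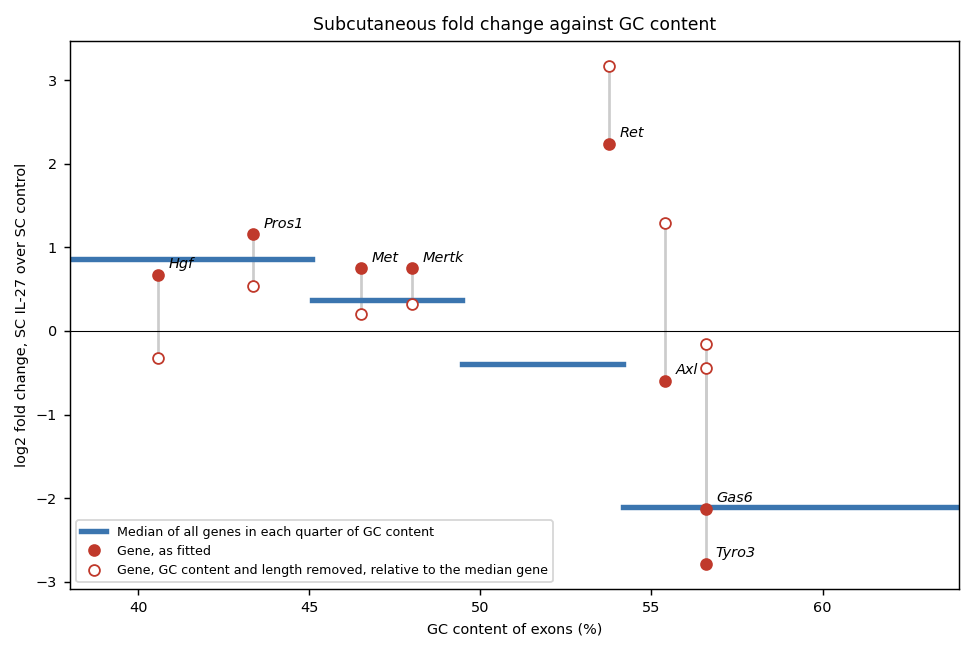
Log2 fold change of SC IL-27 over SC control on the vertical axis against the GC content of the exons in percent; filled points are the 8 genes as fitted, open points the same genes after GC content and length were removed, relative to the median gene, and blue bars are the medians of all genes in each quartile of GC content. Tyro3 (-2.78) and Gas6 (-2.13) sat near the bar of the highest quartile at -2.11, and Ret stood above its quartile in both fits.

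Genes of the surrounding pathways were counted from lists of known members. In the SC comparison, where 20% of all genes were called, 3 of 18 tested MET pathway genes fell and 0 rose: Plaur, the urokinase receptor (log2 fold change -3.18 ± 0.36), Lrig1, a negative regulator of receptor tyrosine kinases (-1.44 ± 0.33), and Plxnb1, a semaphorin receptor that associates with MET (-1.86 ± 0.51). Of 22 genes of TAM signaling and phosphatidylserine clearance, 5 fell and 1 rose. The phagocytic receptor Lrp1 fell from a mean of 279 to 8.37 CPM (log2 fold change -5.06 ± 0.39), and the bridging molecule Mfge8 fell from 217 to 10.3 CPM (-4.39 ± 0.42). Stab1, a phosphatidylserine receptor of macrophages and endothelium, fell by 4.46 on the log2 scale and Itgb5, an integrin chain that MFGE8 engages, fell by 3.02. Among 8 tested genes of the RET list the adaptors Dok4 (-3.56 ± 0.47) and Shank3 (-3.68 ± 0.45) fell and 0 rose. Among 7 other targets of cabo the kinases Flt3 (-1.93 ± 0.40) and Flt4 (-1.84 ± 0.51) fell and 0 rose. The median log2 fold change was -0.30 in the MET list, -0.30 in the TAM list, -0.87 in the RET list and 0.95 among the other targets, beside 0.04 over all genes tested. With GC content and length removed, Plaur (-1.93), Lrp1 (-2.96), Mfge8 (-2.40), Stab1 (-2.63), Itgb5 (-1.21), Dok4 (-1.98) and Flt3 (-2.33) still passed. Plxnb1 (0.45, with its sign turned), Lrig1 (-0.15), Shank3 (-0.93) and Flt4 (-0.37) did not. Abca1, the gene of the TAM list that rose, was at 2.03 before and 1.31 after this correction and no longer passed, and Socs3 went from -1.94 to 0.90 and did not pass either. When each tumor was left out in turn, Plxnb1 passed in 0 of 4 fits, Flt4 and Socs3 in 1, Lrig1 and Abca1 in 2 and Flt3 in 3, and the other 7 in 4 of 4.

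On D14 the intratibial tumors were compared with controls to ask what IL-27, cabo and both together changed at the end of dosing. No member passed the test in any of the 3 comparisons, and the values of Met, a named target of cabo, overlapped between cabo and control tumors. In the D14 IL-27 comparison 0 of 8 passed, where 0% of the 18519 genes did. At an unadjusted p under 0.05 it was 0 of 8 against 2.76% of all genes. Met was at 53.2, 57.1 and 52.3 CPM with IL-27 and at 94.2, 59.2 and 60.6 CPM in the controls. All 3 IL-27 tumors were below all 3 controls, with a log2 fold change of -0.38 ± 0.20 (edgeR unadjusted p = 0.0922, adjusted p = 1.00). Its 95% interval ran from 0.561 to 1.06 on the fold scale. The share of all genes without overlap between groups was not counted on D14.

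With cabo alone, 0 of 8 members passed where 1.89% of 18627 genes did. Most intervals were narrow in this comparison, with Ret as the widest. Axl was at 587, 600 and 568 CPM with cabo and at 662, 574 and 544 CPM in the controls. Its fold change was 0.971, with a 95% interval from 0.833 to 1.13. Tyro3 had a fold change of 1.02 (0.843 to 1.24), Hgf 1.01 (0.759 to 1.34), Met 1.23 (0.924 to 1.63) and Pros1 1.17 (0.892 to 1.53). A 2-fold change of these 5 transcripts therefore lay outside the 95% interval in either direction. Mertk, at 43.4, 50.4 and 37.4 CPM with cabo and 36.8, 35.0 and 36.1 CPM in the controls, was higher in all 3 cabo tumors, by 1.20-fold (0.988 to 1.45, adjusted p = 0.292).

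Ret was the member with the lowest p in both cabo groups of D14. It was at 0.519, 0.388 and 0.619 CPM in the controls, at 0.775, 1.03 and 2.49 CPM with cabo, and at 2.12, 1.52 and 1.35 CPM with IL-27+cabo. Every tumor of each cabo group was above every control. The log2 fold change was 1.47 ± 0.49 with cabo (unadjusted p = 0.0178, adjusted p = 0.174 by edgeR) and 1.72 ± 0.43 with IL-27+cabo (unadjusted p = 0.00551, adjusted p = 0.327 by edgeR). Both comparisons share the same controls. At an unadjusted p under 0.05, Ret was 1 of 8 members in each, against 18.9% of all genes with cabo and 6.2% with IL-27+cabo. DESeq2 called Ret with IL-27+cabo (adjusted p = 0.0335) and not with cabo (adjusted p = 0.0695), while the other alternatives on all tumors gave adjusted p up to 1.00 and 0.847. Without the cabo tumor of mouse 27, the log2 fold change with cabo was 0.80. Ret ranged from 30 to 171 counts in these 9 tumors. The skeletal muscle markers of these 3 groups lay in the same order, with summed levels of 5.71 to 124 CPM in the controls, 958 to 1560 CPM with cabo and 1312 to 3743 CPM with IL-27+cabo. The mean log2 CPM of 6 Schwann and nerve markers also rose, from 0.456 in the controls to 0.880 with cabo and 1.52 with IL-27+cabo. Their summed levels overlapped, and their part was not tested. Within the controls mouse 5 had the most muscle markers (124 CPM) and the least Ret (0.388 CPM). Within the D14 IL-27 group the order differed: mouse 4 had 1.33 CPM of Ret and 25.6 CPM of muscle markers, mouse 6 had 0.294 CPM and 58.7 CPM, and mouse 8 had 1.08 CPM of Ret and 1718 CPM of muscle markers. With the muscle score as a covariate the log2 fold changes of Ret were 1.61 ± 1.33 and 1.78 ± 1.34, with standard errors more than 2 times those of the fits without it, so that muscle and treatment could not be told apart here.

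With IL-27+cabo, 0 of 8 members passed where 0.064% of 18750 genes did. Mouse 20 set the spread of this comparison. Mertk was at 6.89, 40.4 and 45.7 CPM with IL-27+cabo, and its log2 fold change was -0.22 ± 0.60 with mouse 20 and 0.24 ± 0.12 without it. Hgf was at 3.41, 18.7 and 17.6 CPM and moved from -0.64 ± 0.58 to -0.20 ± 0.21. Axl moved from -0.41 ± 0.34 to -0.13 ± 0.13, Met from -0.07 ± 0.47 to 0.30 ± 0.22, Gas6 from 0.52 ± 0.42 to 0.09 ± 0.31 and Ret from 1.72 ± 0.43 to 1.47 ± 0.38. Without mouse 20, 0 members passed, while the genes called over the whole table went from 12 to 175. For the interaction, the change with IL-27+cabo beyond the sum of the single treatments, 0 of 8 passed, where 0% of 19899 genes did, and 0 of 8 had an unadjusted p under 0.05 against 1.88% of all genes.

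**Figure D3:**
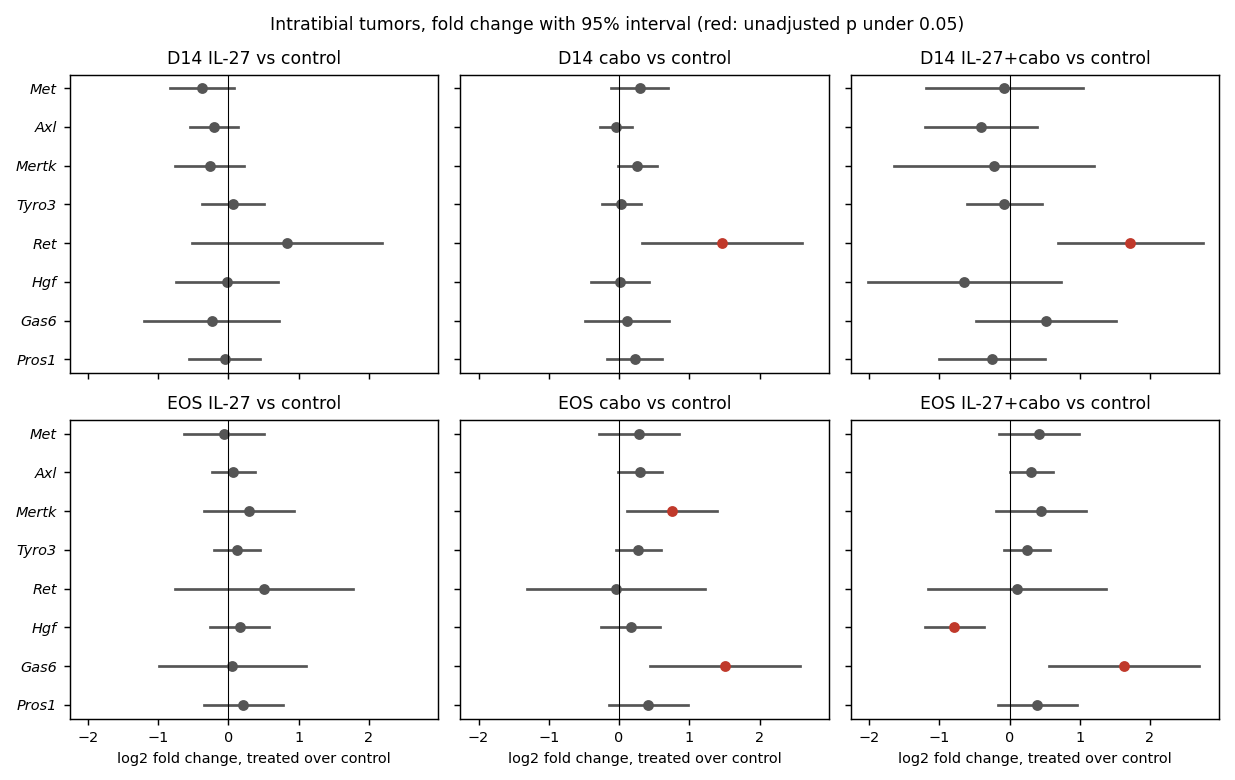
Log2 fold change of each gene in treated over control intratibial tumors on the horizontal axis, with lines for the 95% interval, for the 3 treatments on D14 (top, n = 3 per group) and at EOS (bottom, n = 2 per group). Red points had an unadjusted p under 0.05, which were Ret in both cabo groups on D14, Mertk and Gas6 with cabo at EOS, and Hgf and Gas6 with IL-27+cabo at EOS; none passed after adjustment.

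In the pathway lists of D14 cabo, beside calls for 1.89% of all genes, 1 of 18 MET pathway genes rose, namely Cbl, the ubiquitin ligase that removes activated receptors from the cell surface (log2 fold change 0.52 ± 0.10), and 0 fell. Of 22 genes of the TAM list, Lrp1 (1.02 ± 0.16) and Abca1, a lipid exporter used after engulfment (1.21 ± 0.18), rose and 0 fell. None of the 10 tested genes of the RET list passed. Among 7 other targets of cabo, the VEGF receptors Flt4 (-4.26 ± 0.30) and Kdr (-1.56 ± 0.28) fell and 0 rose. Flt4 went from a mean of 19.8 CPM in the controls to 1.05 CPM with cabo, and to 1.58 CPM with IL-27+cabo, where it was the only listed gene called (-3.63 ± 0.36). The summed endothelial markers were at 193 to 321 CPM in the controls, 146 to 164 CPM with cabo and 114 to 146 CPM with IL-27+cabo, with 3 of 8 called downward with cabo. Of the T cell markers 5 of 7 were called downward with cabo, at 63.1 to 66.0 CPM in the controls and 16.9 to 25.2 CPM with cabo in sum, 4 of 10 skeletal muscle markers were called upward, and 1 fibroblast, 1 osteoclast and 1 platelet marker were called. The part of these cell types in the values of the listed genes was not tested beyond the fit with the muscle score. With that score as a covariate 0 genes were called over the whole table in either comparison, and so none of these. Over all alternatives and leave-outs, that fit included, the log2 fold change of Flt4 ran from -5.03 to -3.99 with cabo and from -4.04 to -3.38 with IL-27+cabo. With cabo that of Kdr ran from -1.79 to -1.36, Abca1 from 0.97 to 1.45, Lrp1 from 0.32 to 1.20 and Cbl from 0.32 to 0.65. When each tumor was left out in turn, Flt4 remained called with cabo in 6 of 6 fits, Abca1 in 3, Lrp1 in 2, and Cbl and Kdr in 1 each, and with IL-27+cabo Flt4 remained called in 1 of 6, the fit without mouse 20. In one fit of all intratibial tumors Flt4 passed and Cbl, Lrp1, Abca1 and Kdr did not. Cbl, Lrp1, Abca1 and Kdr also did not pass with cabo without the filter, and Abca1 did not with GC content and length removed. The median log2 fold changes of the MET, TAM and RET lists with cabo were 0.11, 0.10 and 0.14, beside -0.01 over all genes tested. With IL-27 none of the listed genes passed on D14.

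At EOS the same treatments were compared after dosing had ended, and again no member passed. The methods state that these mice were kept until each met an ethical endpoint, and the paper reports longer survival than control in both cabo groups. The harvest days of the EOS tumors are not given. Treatment therefore cannot be told apart from tumor age and time since dosing at EOS, and the EOS against D14 results share this limit. With IL-27, 0 of 8 passed where 0% of 20026 genes did, and 0 of 8 against 3.25% at an unadjusted p under 0.05. With cabo, 0 of 8 passed against 0% of all genes, and 2 of 8 had an unadjusted p under 0.05 against 8.9%. With IL-27+cabo the figures were 0 of 8 against 0%, and 2 of 8 against 14.2%. The 3 comparisons share the 2 control tumors.

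In both cabo groups of EOS, Gas6 had the largest fold change of the 8 members. It was at 6.11 and 3.22 CPM in the controls, at 3.57 and 6.16 CPM with IL-27, at 12.95 and 13.6 CPM with cabo and at 9.33 and 19.9 CPM with IL-27+cabo. All 4 tumors that had received cabo were above all 4 that had not. The share of all genes with such a split was not counted. The log2 fold change over control was 1.51 ± 0.46 with cabo (unadjusted p = 0.0119, adjusted p = 0.481 by edgeR) and 1.63 ± 0.46 with IL-27+cabo (unadjusted p = 0.00823, adjusted p = 0.210 by edgeR), and with IL-27 it was 0.06 ± 0.45. Without the IL-27+cabo tumor of mouse 28 the value with IL-27+cabo was 1.00. DESeq2 called the first (adjusted p = 0.0345) and the second (adjusted p = 0.00629), while the other alternatives on all tumors gave adjusted p up to 0.997 and 0.932. The mean log2 CPM of the macrophage markers was 5.26 and 5.95 in the controls, 4.54 and 6.15 with IL-27, 6.25 and 6.17 with cabo, and 6.19 and 6.94 with IL-27+cabo. All 10 of 10 macrophage markers were detected, their summed level was 674 to 1097 CPM in the controls, 420 to 1226 CPM with IL-27, 1071 to 1080 CPM with cabo and 1016 to 1643 CPM with IL-27+cabo, and 0 of 10 passed the test. Their part in the Gas6 values was not tested.

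**Figure D4:**
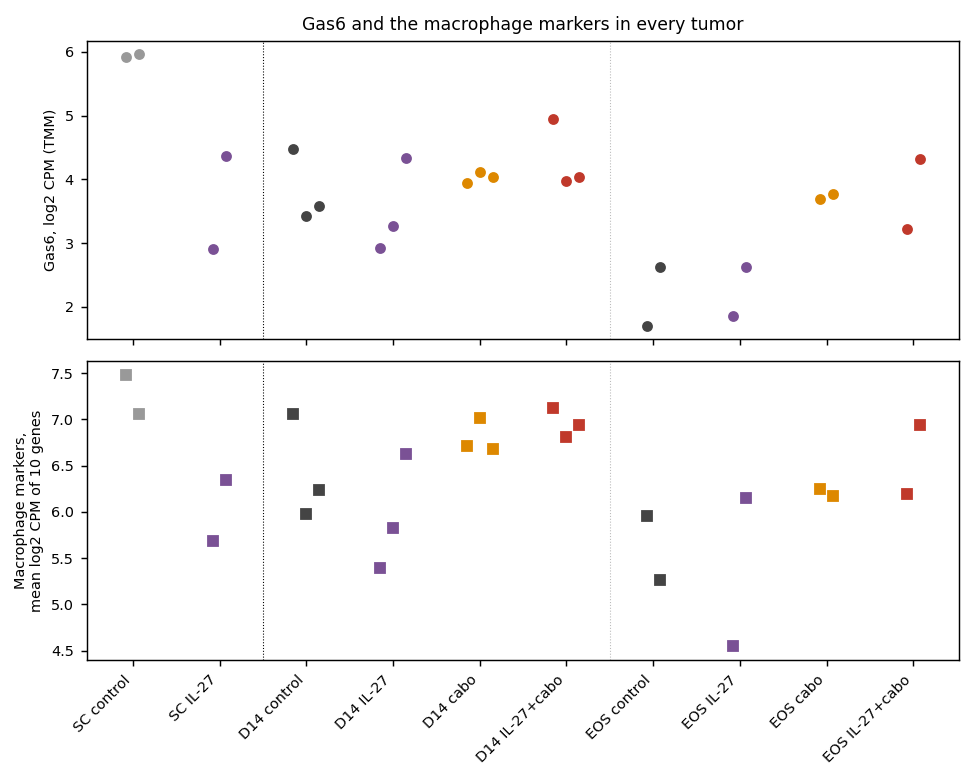
Gas6 (top, log2 CPM) and the mean log2 CPM of 10 macrophage markers (bottom) in every tumor by group, the tumors of a group standing in the same order in both panels. At EOS the 4 tumors given cabo lay above the other 4 in both panels, for the markers only by 6.17 against 6.15. Within the EOS groups the tumors stood in the same order in both panels with IL-27 and with IL-27+cabo, and in opposite order in the controls and with cabo, where the cabo tumors were close together in both.

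With cabo at EOS, 7 of the 8 members were higher in both treated tumors than in both controls, where 21.8% of all genes were; Ret was the exception. In the same cabo tumors the summed skeletal muscle markers were at 103 to 779 CPM, against 6.54 to 12.5 CPM in the controls, and the summed endothelial markers (8 of 8 detected) were at 319 to 359 CPM against 165 to 278 CPM. Summed osteoclast markers were at 155 to 305 CPM against 380 to 741 CPM and T cell markers at 4.82 to 5.61 CPM against 10.1 to 11.95 CPM, and no marker of these 4 lists was called. The part of these cell types in the member values was not tested. Mertk was at 46.5 and 54.3 CPM against 23.3 and 36.2 CPM in the controls, a log2 fold change of 0.76 ± 0.28 (unadjusted p = 0.0265, adjusted p = 0.519 by edgeR) that was 0.47 without the control tumor of mouse 13. Axl was at 590 and 630 CPM against 471 and 518 CPM, or 1.23-fold (95% interval 0.994 to 1.52). Pros1 was at 160 and 150 CPM against 93.0 and 139 CPM, and Met at 80.0 and 82.7 CPM against 62.9 and 70.2 CPM. With IL-27+cabo, 4 of 8 members (Axl, Mertk, Tyro3 and Gas6) were higher in both tumors than in both controls, against 21.6% of all genes. Hgf was the member that went the other way. It was at 14.1 and 13.2 CPM with IL-27+cabo and at 25.7 and 21.0 CPM in the controls, while with cabo alone it was at 26.2 and 26.3 CPM. Its log2 fold change with IL-27+cabo was -0.79 ± 0.18 (unadjusted p = 0.00275, adjusted p = 0.191 by edgeR), and DESeq2 called it (adjusted p = 0.0117), while the other alternatives on all tumors gave adjusted p up to 0.932. None of the listed pathway genes passed in the 3 EOS comparisons. The median log2 fold change of the TAM list was 0.20 with cabo and 0.16 with IL-27+cabo, beside -0.009 and -0.003 over all genes tested. In the same order it was 0.05 and -0.02 in the MET list, -0.16 and -0.23 in the RET list, and 0.40 and 0.35 among the other targets of cabo.

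The ligands Gas6 and Pros1 had lower values at EOS than on D14, without overlap, in the controls, with IL-27 and with cabo. With IL-27+cabo the values of both overlapped. The share of all genes without overlap was not counted for EOS against D14. In the controls Gas6 was at 22.1, 10.7 and 11.9 CPM on D14 and at 6.11 and 3.22 CPM at EOS, without overlap. The log2 fold change was -1.67 ± 0.42 (unadjusted p = 0.00544, adjusted p = 0.209 by edgeR), and DESeq2 called it (adjusted p = 0.00165), while the other alternatives on all tumors gave adjusted p up to 0.468. Pros1 was at 147, 234 and 190 CPM on D14 and at 93.0 and 139 CPM at EOS, a log2 fold change of -0.72 ± 0.24 (unadjusted p = 0.0217, adjusted p = 0.304 by edgeR) that was -0.46 without the EOS tumor of mouse 13. In these controls 0 of 8 passed against 0.104% of 19292 genes, and 2 of 8 against 13.1% unadjusted. The macrophage markers of the controls were at 857 to 1952 CPM on D14 and 674 to 1097 CPM at EOS in sum, with 0 of 10 called. In the same controls the T cell markers were at 63.1 to 66.0 CPM on D14 and 10.1 to 11.95 CPM at EOS in sum, with 5 of 7 called downward, and with 0 called when any 1 tumor was left out, and the osteoclast markers were at 180 to 221 CPM and 380 to 741 CPM in sum, with 0 of 6 called. The part of these cell types in the Gas6 and Pros1 values was not tested. With IL-27, Gas6 went from 7.58, 9.64 and 20.2 CPM to 3.57 and 6.16 CPM (log2 fold change -1.35 ± 0.49, adjusted p = 0.818). It was -0.84 without the D14 tumor of mouse 8 and -0.34 ± 0.32 with the muscle score as a covariate. The summed muscle markers were at 25.6 to 1718 CPM on D14 and at 8.44 to 14.9 CPM at EOS with IL-27. Pros1 with IL-27 went from 203, 138 and 205 CPM on D14 to 134 and 136 CPM at EOS (log2 fold change -0.43 ± 0.21, edgeR adjusted p = 0.818). In the IL-27 comparison 0 of 8 passed against 0% of 19078 genes, and 1 of 8 against 5.05% unadjusted.

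With cabo, Pros1 came closest to the threshold among the intratibial results. It was at 250, 205 and 225 CPM on D14 and at 160 and 150 CPM at EOS. Both EOS tumors were below all 3 D14 tumors, and the log2 fold change was -0.52 ± 0.10 (unadjusted p = 0.00128, adjusted p = 0.0544 by edgeR). DESeq2 called it (adjusted p = 2.03e-05), as did edgeR on counts divided by 4 (adjusted p = 0.0397) and without the D14 tumor of mouse 25 (adjusted p = 0.0463). By edgeR it did not pass without the filter (-0.53, adjusted p = 0.124) or with the muscle score as a covariate (-0.51 ± 0.15, adjusted p = 0.353). Nor did it pass with all intratibial tumors in one edgeR fit (-0.55 ± 0.30, adjusted p = 1.00). Hgf (0.34 ± 0.11), Gas6 (-0.28 ± 0.11) and Ret (-1.37 ± 0.56) had unadjusted p between 0.0203 and 0.0466. Of the cell type markers, 6 of 8 endothelial and 2 of 4 erythroid markers rose in this comparison, and 2 of 7 T cell markers, 1 of 10 macrophage, 1 of 8 fibroblast and 1 of 4 platelet markers fell. All 10 macrophage markers had values below 0 (median log2 fold change -0.49), 7 of them with an unadjusted p under 0.05, and their sum was at 1516 to 2013 CPM on D14 and 1071 to 1080 CPM at EOS. The muscle markers were at 958 to 1560 CPM and 103 to 779 CPM, with 0 of 10 called. Their part in the member values was not tested beyond the muscle covariate. In all, 0 of 8 passed against 2.09% of 19144 genes, and 4 of 8 against 17.6% unadjusted. Without the D14 tumor of mouse 27 the log2 fold change of Ret was -0.71. With IL-27+cabo the Ret values went from 2.12, 1.52 and 1.35 CPM on D14 to 0.611 and 0.605 CPM at EOS (log2 fold change -1.48 ± 0.53, adjusted p = 0.925). There 0 of 8 passed against 0% of 19365 genes, and 1 of 8 against 3.83% unadjusted. Ret and the skeletal muscle markers were both lower at EOS than on D14 in each cabo group. The summed markers were at 103 to 779 CPM with cabo and 83.4 to 197 CPM with IL-27+cabo at EOS, against 958 to 1560 CPM and 1312 to 3743 CPM on D14. With the muscle score as a covariate the log2 fold change of Ret was -0.95 ± 0.93 with cabo and -0.51 ± 1.74 with IL-27+cabo.

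Whether the cabo change differed between EOS and D14 was tested as a difference of differences over all intratibial tumors. Here too the cabo and control tumors of EOS may differ in age. For this difference 0 of 8 passed against 0.0788% of 21563 genes, and 0 of 8 had an unadjusted p under 0.05 against 4.11%. The largest estimates were those of Ret (-1.53 ± 0.86, unadjusted p = 0.0944, adjusted p = 1.00 by edgeR) and Gas6 (1.38 ± 0.67, unadjusted p = 0.0555, adjusted p = 1.00 by edgeR). The VEGF receptor Flt4 was called in the same fit (4.74 ± 0.43). In the pathway lists of cabo, EOS against D14, where 2.09% of all genes were called, Cblb (-0.47 ± 0.08) fell among 18 MET pathway genes, and Socs3, a feedback inhibitor of cytokine signaling that TAM receptors induce, fell by 0.72 among 22 genes of the TAM list. Gfra2, a co-receptor of RET, fell from a mean of 42.7 to 26.2 CPM (log2 fold change -0.68 ± 0.11). The adaptor Dok5 was also called, but it was at 0.330 to 0.350 CPM on D14 and at 0 in both EOS tumors. Flt4 (4.35 ± 0.26), Flt1 (1.70 ± 0.16), Kdr (1.45 ± 0.26) and Kit (1.29 ± 0.23) rose among 7 other targets of cabo. The summed endothelial markers were at 146 to 164 CPM on D14 and at 319 to 359 CPM at EOS in these tumors, and their part was not tested. When each tumor was left out in turn, Flt4 remained called in 5 of 5 fits, Flt1 in 4, Socs3 in 3, and Cblb, Gfra2, Kdr, Kit and Dok5 in 0. Without the filter Cblb, Gfra2, Kdr, Kit, Socs3 and Dok5 did not pass. Kdr and Dok5 also did not pass with RLE normalization or with GC content and length removed. With the muscle score as a covariate Flt4 and Flt1 passed and the others did not, and in one fit of all intratibial tumors Flt4 alone of these passed. Over all alternatives and leave-outs, these fits included, the log2 fold change of Cblb ran from -0.53 to -0.43, Gfra2 from -0.76 to -0.58 and Socs3 from -0.91 to -0.60. That of Kdr ran from 1.14 to 1.98 and that of Kit from 0.94 to 1.72.

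RET was measured beside co-receptors that were more abundant than RET itself. In the intratibial tumors the median level per kilobase was 11.5 CPM for Gfra2, 2.18 for Gfra4 and 1.70 for Gfra1, compared with 0.102 for Ret. Of the ligands, the median level per kilobase was 1.20 CPM for Gdnf, 0.415 for Artn, 0.245 for Gdf15 and 0.0989 for Nrtn. Gfral, the receptor for GDF15, was at 0 in every tumor of either site, and Gfra3 and Pspn did not pass the filter in either site. A count of 0 in a library of this size allows up to 3 counts, and a limit of this kind covers counting error only.

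The genes whose levels moved most like each member were found as those with the smallest root-mean-square (RMS) difference of centered log2 CPM over the 20 intratibial tumors, among 21563 genes. For Gas6 these were C1qc (RMS difference 0.38), Ctsh (0.38) and Rcsd1 (0.40), where Gas6 itself varied with an RMS of 0.83; C1qc is a macrophage complement gene and 1 of the 10 macrophage markers. Without mouse 20, the nearest genes to Gas6 were Rcsd1 (0.35), P2ry12 (0.36) and Ctsc (0.37). For Axl, with an RMS of 0.30 of its own, they were Iars2, Dr1 and Ctcf (0.09 to 0.10), and without mouse 20 Golm1, Iars2 and Dr1. For Tyro3 they were Cd151, Lrp10 and Calm3 (0.11 to 0.13), and without mouse 20 Wdr20, Spred1 and Cd151. The RMS of Tyro3 itself was 0.15, little above these differences. For Met the same 3 genes, St5, Cep126 and Lrp8, were nearest with mouse 20 (0.13 to 0.15, against an RMS of 0.46 of its own) and without it. For Mertk they were Atrnl1, Zfp715 and Zfp808 (0.22 to 0.23), and none of these was among its nearest 3 without mouse 20, which were Pitpnc1, Apaf1 and Tmcc3. Hgf had Xylt1, Lrp5 and Uprt with mouse 20 and Frrs1, Dlg3 and Katnal1 without it. Pros1 had Itfg1, Neto2 and Phkb, and without mouse 20 Efemp2, Lgmn and Smox. Ret had Pdk2 nearest in both, at 0.47 with mouse 20 and 0.48 without it, against an RMS of 0.79 of its own.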

How the data were processed

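The authors isolated RNA, prepared stranded poly(A) libraries and sequenced them in pairs. The submitters' processing notes name FastQC, HISAT2, StringTie and DESeq2 and the human build GRCh38, although the identifiers are those of mouse genes. The program that made the counts is not given in the sources used here. The file deposited by the authors holds raw counts for each Ensembl identifier, with no scaling, and 30.4% to 35.5% of the values from 1 to 20 were multiples of 4. Groups were taken from the labels. Of the identifiers, 55141 matched GENCODE M21.

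Counts were tested with the quasi-likelihood F test of edgeR 4.0.16 in R 4.3.3 (filterByExpr, TMM) over all genes of each comparison, with Benjamini-Hochberg adjustment and a threshold of 0.05. D14 and EOS treatments were fitted within their time, and EOS against D14 within each treatment. The study's methods used DESeq2, tried here (1.42.0) as an alternative. Other alternatives were RLE, no filter, GC content and length removed with splines of 5 degrees of freedom, counts divided by 4, the muscle marker score as a covariate, all intratibial tumors in one fit, a replicate block and each tumor left out. Log2 CPM used a prior count of 2. With 2 or 3 tumors per group, an exact permutation test could reach only 0.333 or 0.1, so none was used. For a gene without a group difference these are also the probabilities that 2 against 2 or 3 against 3 tumors do not overlap. In simulated counts edgeR recovered 50 of 200 genes changed 4-fold in the SC design, 187 in D14 cabo, 54 in D14 IL-27+cabo and 165 in EOS against D14 controls, with 7, 18, 3 and 14 false calls; DESeq2 recovered 137, 192, 156 and 189, with 65, 79, 65 and 79 false calls.

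The 8 genes and all lists were chosen with earlier results of these data known. All 8 members were tested in every comparison, but some comparisons print values of only some members, chosen after the values were seen. The text names up to 4 called genes of each pathway list with the smallest p, and up to 3 genes nearest to each member over the intratibial tumors. Values of single epithelial markers, co-receptors and ligands, and Abca1 and Socs3 in the SC tumors, were named after their values were seen. The leave-out of mouse 20 from the nearest genes was also chosen after seeing the data.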

Additional observations from a re-analysis of the deposited data

Results flagged for a closer look

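For 6 pairs of groups every treated tumor lay on one side of the mean of its controls in the first setting and on the other side in the second. None of these differences was tested. Values are differences of mean log2 CPM from control. For Met, IL-27 gave 0.80 in SC tumors, -0.36 on D14 and -0.06 at EOS, so that D14 differed from SC by -1.16 and EOS from SC by -0.85. Axl with IL-27 was at -0.61 in SC tumors, -0.22 on D14 and 0.08 at EOS, a difference of 0.68 between EOS and SC and 0.30 between EOS and D14. Axl with IL-27+cabo was at -0.51 on D14 and 0.32 at EOS, a difference of 0.82, and the D14 value included mouse 20. For Tyro3 with IL-27 the values were -2.78 in SC tumors and 0.13 at EOS, a difference of 2.91. In the fit without GC content and length, the SC fold change of Axl relative to the median gene had the opposite sign (1.29), that of Met did not (0.21), and that of Tyro3 was -0.45 and not called. Before the median was subtracted, Met was at -0.135 in that fit.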

How the results depend on the processing

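Of the 178 alternatives of the counts of members called, 11 gave a count more than 1.5 times away. In the SC tumors 2 members were called, against 1 without the filter, 0 with GC content and length removed, 1 with that correction and a replicate block, and 1 to 3 when each tumor was left out in turn (1 without control replicate 1, where Gas6 was lost, and 3 without control replicate 2). Tyro3 remained called in each of these leave-outs (-3.12 to -2.50), and Gas6 in 1 of 4 (-3.06 to -1.58). With DESeq2, 1 member was called in D14 IL-27+cabo, 1 in EOS cabo, 2 in EOS IL-27+cabo, 1 in EOS against D14 of the controls and 1 in that of cabo. Counts divided by 4 also gave 1 in the last comparison, where leaving out each tumor gave 0 to 1. Of the 10 gene values called in some fit, 0 changed sign.

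The SC replicate numbers share only a number: the correlation of same-numbered deviations was 0.031, and 2 pairs do not settle a pairing. The replicate block called 3 members in place of 2, with Tyro3 at -2.79, Gas6 at -2.31 and Ret at 2.76, and Ret passed there (adjusted p = 0.0245, edgeR) and with GC content and length also removed (3.30, adjusted p = 0.0497, edgeR). Ret also passed without SC control replicate 2 (4.45) or SC IL-27 replicate 1 (2.69), and Pros1 without SC control replicate 2 (1.51), with counts divided by 4 (1.17) and with DESeq2 (1.22). A fit without an SC tumor leaves 1 tumor in that group, which is assumed to vary like the other group. For the intratibial tumors, no paired analysis was possible because the mouse numbers differ between groups.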

Other observations

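Levels of genes that mature or regulate these ligands are given as the median CPM per kilobase of exon over the intratibial tumors. Of the proteases known to activate HGF, Plau (urokinase) was at 55.0, St14 at 0.135, Hpn at 0.0660 and Hgfac at 0.00796. The inhibitor Spint1 was at 4.27 and Spint2 at 0.339. Mst1r, the receptor most closely related to MET, was at 0.350 and its ligand Mst1 at 0.0381. GAS6 and PROS1 need vitamin K dependent carboxylation to bind phosphatidylserine, and the carboxylase Ggcx and the reductase Vkorc1 were at 6.12 and 22.5. The proteases Adam10 and Adam17, which shed TAM receptors from the cell surface, were at 52.2 and 18.1. Among other proteins that recognize apoptotic cells, Mfge8 was at 39.8 and Stab1 at 14.4, and Adgrb1 was at 0.117, Timd4 at 0.110 and Stab2 at 0.0379.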
